A study of Rattus norvegicus with 20 samples.

Results

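The change of the rat testis transcriptome between embryonic days 14 and 16 (E14 and E16) was read from 8 oligonucleotide arrays, chosen by stage from the 20 arrays of a study of the fungicide vinclozolin. They were 4 arrays of each stage, and in each stage 2 came from vehicle and 2 from vinclozolin exposure. Pregnant Sprague-Dawley rats had been injected daily from E8 to E14 with vinclozolin, whose metabolites block the androgen receptor, at 100 mg/kg/day, or with the vehicle DMSO alone. The E14 testes were therefore taken on the last day of injection and the E16 testes 2 days later. Testis cords were seen histologically at both stages and sex was read by a PCR for Sry, per the labels. Arrays of 1 group are termed biological replicates there, without word on whether each held 1 embryo, a litter or a pool, and p-values therefore measure the spread among arrays alone. The labels also do not say whether these gonads were parted from the mesonephros. For the step before E14 and some alternative fits, 4 arrays of E13 testes were added, 2 from vehicle and 2 from vinclozolin exposure. The E13 testes were taken within the period of injections from E8 to E14.

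In this window the fetal testis changes from a cord-forming gonad into a hormone-producing organ. Sertoli cells, which surround the germ cells in the cords, secrete anti-Müllerian hormone and the signal Desert hedgehog. Fetal Leydig cells then differentiate between the cords and turn cholesterol into androgen through Star, Cyp11a1, Hsd3b and Cyp17a1, while peritubular cells around the cords take on smooth muscle character and germ cells become gonocytes. These are whole-organ measurements, in which fewer cells of a type and less RNA per cell cannot be told apart.

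Values are signal intensities, with a trimmed mean of 210.1 on every array, and differences are given on the scale of log2(signal + 16). The arrays of a group correlated across probe sets with an r of 0.958 to 0.983, and the first principal component (56.5% of the variance) parted the stages. E14 vehicle replicate 1 lay apart on the third component (11.3%). Its summed signal over 19 Sertoli cell genes was 6872, against 17080 to 19940 on the other E14 arrays, and it read 1534.6 for Fos, an immediate early gene, against 18.3 to 289.2 on the other 7. The ratio of 3' to 5' beta-actin signal, a measure of RNA integrity, was 1.98, 1.80, 1.73 and 2.93 at E14 and 2.48 to 2.99 at E16. The array's 5S ribosomal RNA probe set read 371.2 to 451.8 at E14, 2089.4 to 3125.6 at E16 and 429.3 to 867.2 on the 4 E13 arrays. The part of these differences in the stage changes was not tested.

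**Figure D1:**
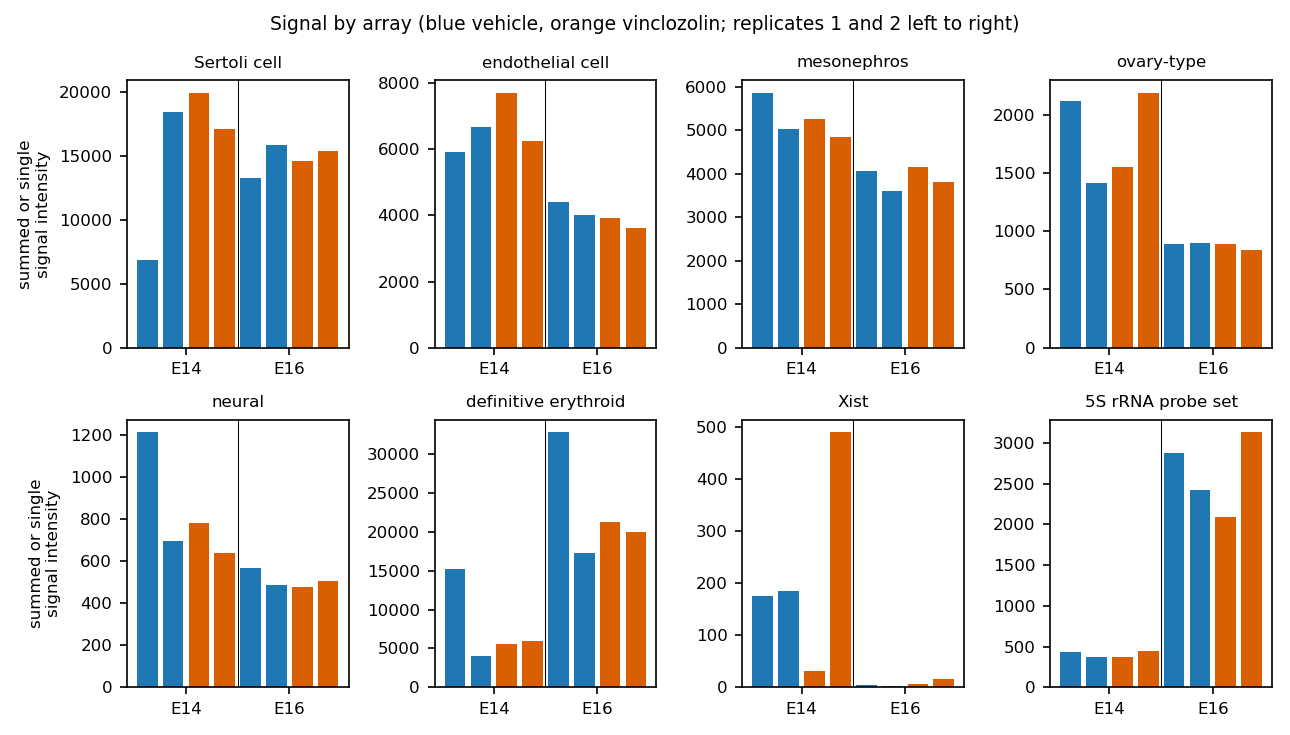
Signal intensity on each of the 8 arrays, as the sum over the measured genes of 6 marker lists and as the single value of Xist and of the 5S ribosomal RNA control (y axis, linear from 0). E14 vehicle replicate 1 had the lowest Sertoli cell sum (6872), and the 5S control read 2089.4 to 3125.6 at E16 against 371.2 to 451.8 at E14.

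Change between the stages was broad. Of 20543 probe sets tested, 3492 rose and 4644 fell from E14 to E16 at an adjusted p under 0.05 (limma with treatment as a covariate, Benjamini-Hochberg adjustment). This is 39.6% of those tested, and 10069 passed at an unadjusted p under 0.05. The excess of falls depended on scaling: with quantile normalization 3808 rose and 3989 fell. Each of 11130 genes was represented by its probe set of highest mean signal, and 20.3% of the genes rose and 24.4% fell (44.7% together), with a median difference of -0.05 (median SE 0.18). Counts of gene lists below have to be read against these shares. Of the calls, 2990 rises and 3750 falls had no overlap between the 4 E16 and the 4 E14 arrays (16.5% of all probe sets lay higher and 20.7% lower without overlap). Without E14 vehicle replicate 1, 3390 rose and 4253 fell.

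Fetal Leydig cell genes showed the steepest rises. Cyp17a1, the 17-alpha-hydroxylase and lyase that opens androgen synthesis (chromosome 1, 255476861 to 255484547 in GRCr8), read 4.3, 22.5, 10.0 and 35.2 on the E14 arrays (vehicle replicates 1 and 2, then vinclozolin replicates 1 and 2). At E16 it read 2657.0, 6521.8, 7448.0 and 6601.3 in the same order. The stages did not overlap, and E16 vehicle replicate 1 lay below the other E16 arrays. The log2 rise was 7.41 (SE 0.30, adjusted p = 1.5e-07, limma). The E14 level lay under the 40th percentile of its arrays, and counted from that percentile the rise was 6.64.

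Cyp11a1, which cleaves the cholesterol side chain (chromosome 8, 67318665 to 67330196), read 67.0, 34.1, 38.9 and 33.5 at E14 and 1742.6, 2236.8, 2528.9 and 2577.8 at E16, a rise of 5.29 (SE 0.20). Hsd3b1, a 3-beta-hydroxysteroid dehydrogenase (chromosome 2, 188858574 to 188864694), read 524.3, 195.6, 249.3 and 253.6 and then 4989.6, 6642.3, 6609.4 and 6162.1, a rise of 4.34 (SE 0.24). Its near-identical paralogs may share its probe set, so the value is uncertain as to the copy. Star, the carrier that brings cholesterol to the inner mitochondrial membrane (chromosome 16, 72969824 to 72974447), read 63.6, 55.4, 73.5 and 101 and then 395.5, 646.2, 884.8 and 797.6, a rise of 2.93 (SE 0.18). None of the 3 overlapped between the stages. Insl3, a hormone of Leydig cells that acts in testis descent (chromosome 16, 18432668 to 18434539), read 31.0, 17.3, 10.2 and 33.7 at E14 and 535.5, 2066.1, 2638.5 and 2371.3 at E16. It rose by 5.44 (SE 0.40), or by 4.91 counted from the 40th percentile, and E16 vehicle replicate 1 was again the low array of its stage.

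Over the list of Leydig cell and steroidogenic genes, 11 of 13 measured members rose and 1 fell, with a median of 2.34 (median of all genes -0.05). The other risers were Lhcgr, the receptor for luteinizing hormone (2.99), Fdx1, the electron donor of the mitochondrial steroid enzymes (2.34), the prolactin receptor Prlr (1.73), the lipoprotein receptor Scarb1 (1.44), the testosterone-forming enzyme Hsd17b3 (1.31) and Cyb5a, which promotes the lyase step (1.00). Por, the electron donor of Cyp17a1, had a value of -0.46 (adjusted p = 0.072). Nr5a1, the nuclear receptor that activates many steroidogenic promoters (chromosome 3, 42874505 to 42896109), fell by 1.01 (SE 0.25, adjusted p = 0.0082, limma). It read 338.1, 768.6, 1043.7 and 768.3 at E14 and 263.4, 379.7, 321.4 and 355.4 at E16. Only E14 vehicle replicate 1 reached into the E16 range. Without E14 or E16 vehicle replicate 1 a second member fell.

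**Figure D2:**
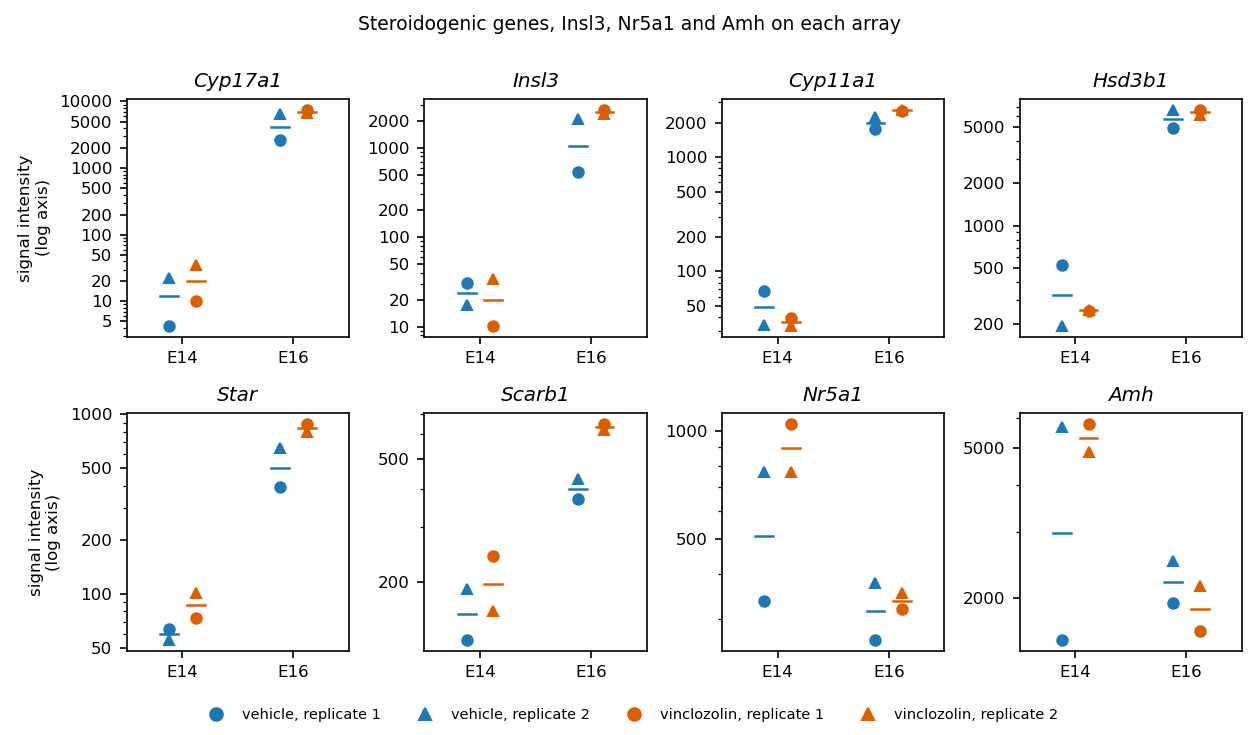
Signal intensity (y axis, log scale) of 8 genes on the E14 and E16 arrays, with circles for replicate 1, triangles for replicate 2 and bars for the group mean on the log2(signal + 16) scale. The 6 steroidogenic or Leydig genes were higher on every E16 array than on any E14 array, while Nr5a1 and Amh were lower at E16 apart from E14 vehicle replicate 1.

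Promoter sequences of the listed genes were searched for the letters of the core site of Nr5a1, whose whole-organ signal fell while most of the list rose. Which cells gave the Nr5a1 signal was not tested. RefSeq promoter windows (GRCr8, 250 bases before to 50 after the start) were at hand for 10 genes of the list, without Star, Cyp17a1 and Scarb1. Both strands were searched for the core site AAGGTCA and for the looser AAGGNCA, which includes it but allows any base at N. None of the 10 windows held AAGGTCA, which 4.61% of 33469 promoters do, and 3 held AAGGNCA, which 20.3% do. Counted from the start site, AAGGACA began at -96 in Hsd3b1, AAGGGCA at -213 in Insl3 and AAGGCCA at -209 on the opposite strand in Fdx1. None of these is the core site itself. The 250 bases read for Insl3 (chr16:18432939-18433188, plus strand) lie within the span given above for that gene. The match in Insl3 is thus upstream only of the start site used for its window. The 250 bases before the start are shown for a gene with and a gene without the looser letters, with the match in capitals. Hsd3b1 lies on the minus strand (chr2:188864695-188864944) and Cyp11a1 on the plus strand (chr8:67318415-67318664).
Hsd3b1: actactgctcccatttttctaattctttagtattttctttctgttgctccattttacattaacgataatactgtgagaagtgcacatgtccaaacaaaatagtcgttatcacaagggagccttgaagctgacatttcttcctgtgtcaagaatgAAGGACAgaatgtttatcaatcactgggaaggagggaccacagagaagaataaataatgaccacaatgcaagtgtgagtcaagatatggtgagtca
Cyp11a1: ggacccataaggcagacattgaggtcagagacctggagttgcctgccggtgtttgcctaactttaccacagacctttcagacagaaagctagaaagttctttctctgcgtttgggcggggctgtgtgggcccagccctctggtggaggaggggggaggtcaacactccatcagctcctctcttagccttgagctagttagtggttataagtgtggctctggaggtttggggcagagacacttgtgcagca
Both genes rose more than 4 on the log2 scale. A match of letters is a description, not a bound site, and a window without a match may hold sites of other letters.

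Other steep rises came from secreted and matrix proteins. Svs5, a secreted protein of the seminal vesicle in the adult (chromosome 3, 173415521 to 173417131), read 1.3 to 13.5 at E14 and 839.8 to 1111.5 at E16, a rise of 5.44 (SE 0.20) or 4.18 from the 40th percentile. Cpa1, a digestive carboxypeptidase (chromosome 4, 60224801 to 60230928), read 77, 198.4, 220.3 and 233.9 and then 3527.7, 6240.3, 8859.2 and 8220.6, a rise of 5.10 (SE 0.24). Neither overlapped between the stages. The Wnt antagonist Sfrp4 rose by 4.18, the proteoglycan Ogn by 3.57, the calcification inhibitor Mgp by 3.48 and the collagen cross-linking enzyme Lox by 3.08. The calcium sensor Vsnl1 rose by 3.10. Afp, a plasma protein of fetal liver and yolk sac, read 29.9 to 36.0 at E14. At E16 it read 894.1 and 1099.5 on the replicates numbered 1 but 175.2 and 211.9 on those numbered 2, a rise of 3.23 (SE 0.49) that differed within both treatments.

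Of 13 measured peritubular and smooth muscle genes, 9 rose and 1 fell (median 0.76). Tagln, an actin-binding protein of smooth muscle (chromosome 8, 55121647 to 55127121), read 273.6, 115.1, 145.0 and 101.4 at E14 and 1552.3, 1351.8, 1023.6 and 1009.8 at E16, a rise of 2.91 (SE 0.22). Calponin (Cnn1) rose by 2.24 and smooth muscle actin (Acta2) by 1.51. Tropomyosin Tpm1 rose by 0.76 on its brightest probe set, but its other probe sets ranged from -0.44 to 0.65. Smtn fell by 0.81.

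Of 7 measured genes of the gonocyte, of piRNA silencing and of meiosis, 4 rose and none fell (median 1.14). Sycp3, a protein of the meiotic chromosome axis (chromosome 7, 24761476 to 24775933), read 52.5, 84.1, 66.4 and 82.9 at E14 and 540.2, 1065.2, 713.8 and 617.3 at E16, a rise of 3.07 (SE 0.22). The piRNA-pathway gene Asz1 rose by 1.99, Tex15 by 1.70 and Taf7l by 1.14. The call of Taf7l was lost with a floor at the 40th percentile (adjusted p = 0.0567), and its stages overlapped, as did those of Tex15. Of 7 germ cell identity genes, 1 rose and 1 fell (median -0.45). Kit, the receptor tyrosine kinase of migrating germ cells (chromosome 14, 32901615 to 32978895), read 79.3 to 123.4 at E14 and 10.2, 34.8, 50.5 and 75.2 at E16, a difference of -1.10 (SE 0.29). Ifitm3, an interferon-induced membrane protein also made by other cells, rose by 0.93. Tfap2c, Lin28a and Sall4 had values of -0.92, -0.45 and -0.98 that did not pass. Without E14 vehicle replicate 1, 5 of the 7 fell.

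Sertoli cell genes went both ways, with 7 rises and 7 falls among 19. The median was 0.00, or -0.24 with 7 rises and 9 falls without E14 vehicle replicate 1. Leaving out 1 other array gave 3 or 4 falls for 5 of the 7 others (all but both E16 vehicle replicates), and quantile normalization gave 4. Tsx, an X-linked testis transcript, rose by 2.86 (SE 0.21, from 236.8 to 523.1 at E14 to 2789.9 to 3266.8 at E16). The tight junction protein gene Cldn11 rose by 0.91 on its brightest probe set, but had 0.28 on its other (adjusted p = 0.47, limma). The secreted signals were lower. Dhh, which acts on Leydig and peritubular precursors (chromosome 7, 131929857 to 131935352), read 185.7, 454.7, 641.3 and 392.0 at E14 and 170.1, 132.0, 137.3 and 164.2 at E16, a difference of -1.27 (SE 0.27). The activin and inhibin subunit Inhbb fell by 1.67, and Cyp26b1, which degrades retinoic acid, by 1.75. Both were lowest within E14 on vehicle replicate 1.

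For the gene Amh, the Müllerian inhibiting hormone (chromosome 7, 9557451 to 9559867), the E14 arrays read 1553.9, 5697.9, 5795.5 and 4892.5 and the E16 arrays 1942.0, 2516.9, 1635.7 and 2151.7. The stages overlapped because of E14 vehicle replicate 1, which lay below every E16 array. The pooled difference was -0.96 (SE 0.34, adjusted p = 0.0415, limma). Without that array the gene Amh had -1.44 (adjusted p = 1.2e-04, limma). When any 1 of 6 other arrays was left out the call was lost, with adjusted p values of 0.0693 to 0.125. These were both vinclozolin arrays of each stage, E14 vehicle replicate 2 and E16 vehicle replicate 1. The call of gene Amh was also lost in fits with 12 or 20 arrays (adjusted p = 0.258 and 0.176), with no filter (0.0751) and with no variance trend (0.0689).

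Several receptors and pathway partners of these signals fell. Over the AMH, inhibin and activin list, 5 of 11 fell (3 without E16 vinclozolin replicate 2) and 1 rose, with a median of -0.49. The receptor Amhr2 fell by 1.58 (816.6 to 1344.3 at E14 against 307.3 to 376.8 at E16) and the activin receptor Acvr2b by 1.38, while the activin subunit Inhba rose by 2.02. Of 9 hedgehog genes, 4 fell and none rose (median -0.39, or -0.24 without E14 vehicle replicate 1): Dhh, Disp1 by 0.76, Smo by 0.63 and Sufu by 0.65. The call of Smo was lost without E16 vinclozolin replicate 2 (adjusted p = 0.0543), and that of Sufu without any 1 of 5 arrays (0.0586 to 0.0979). The platelet-derived growth factor receptor Pdgfrb fell by 1.05 and the ligand Pdgfa by 0.60, whereas Pdgfra had a value of 0.08 (SE 0.10, adjusted p = 0.55). Early gonad transcription factors fell in 7 of 15 cases and rose in 1 (median -0.51), Wt1 by 0.73 and Cbx2 by 0.87.

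Endothelial genes fell in 9 of 16 cases and none rose (median -0.70). Plvap, which forms the diaphragms of fenestrated vessels (chromosome 16, 18218966 to 18231279), read 765.9, 1157.7, 1298.2 and 977.4 at E14 and 258.3, 233.2, 227.3 and 216.8 at E16, a difference of -2.07 (SE 0.17). Ephb4 fell by 1.25, Tie1 by 1.11 and Kdr by 0.89, all without overlap. Among those that did not pass, Pecam1 had a value of -0.37, Cldn5 -0.36, Tek 0.01 and Emcn 0.02.

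Of 43 measured matrix genes, 18 fell and 8 rose (median -0.13). When they were sorted by textbook class, after the values were seen, 11 of 14 basement membrane genes were among those that fell and none rose (median -0.82, range -1.65 to 0.29). Col18a1, whose fragment endostatin acts on vessels (chromosome 20, 11473645 to 11582111), fell from 839.4, 1290.0, 1596.3 and 1110.3 to 320.6, 355.6, 338.8 and 456.7, by 1.65 (SE 0.17). The proteoglycan perlecan (Hspg2) fell by 1.35. Of 5 fibril-forming collagens, 1 fell and none rose (median 0.00). The 8 risers included Mgp and Lox. Among interstitial stroma genes 7 of 15 rose and 3 fell, with Dcn, a collagen-binding proteoglycan, higher by 2.71 and the orphan receptor Nr2f1 lower by 1.73. Within E14, Ogn, Dcn, Lox and Nr2f1 were each highest on vehicle replicate 1.

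**Figure D3:**
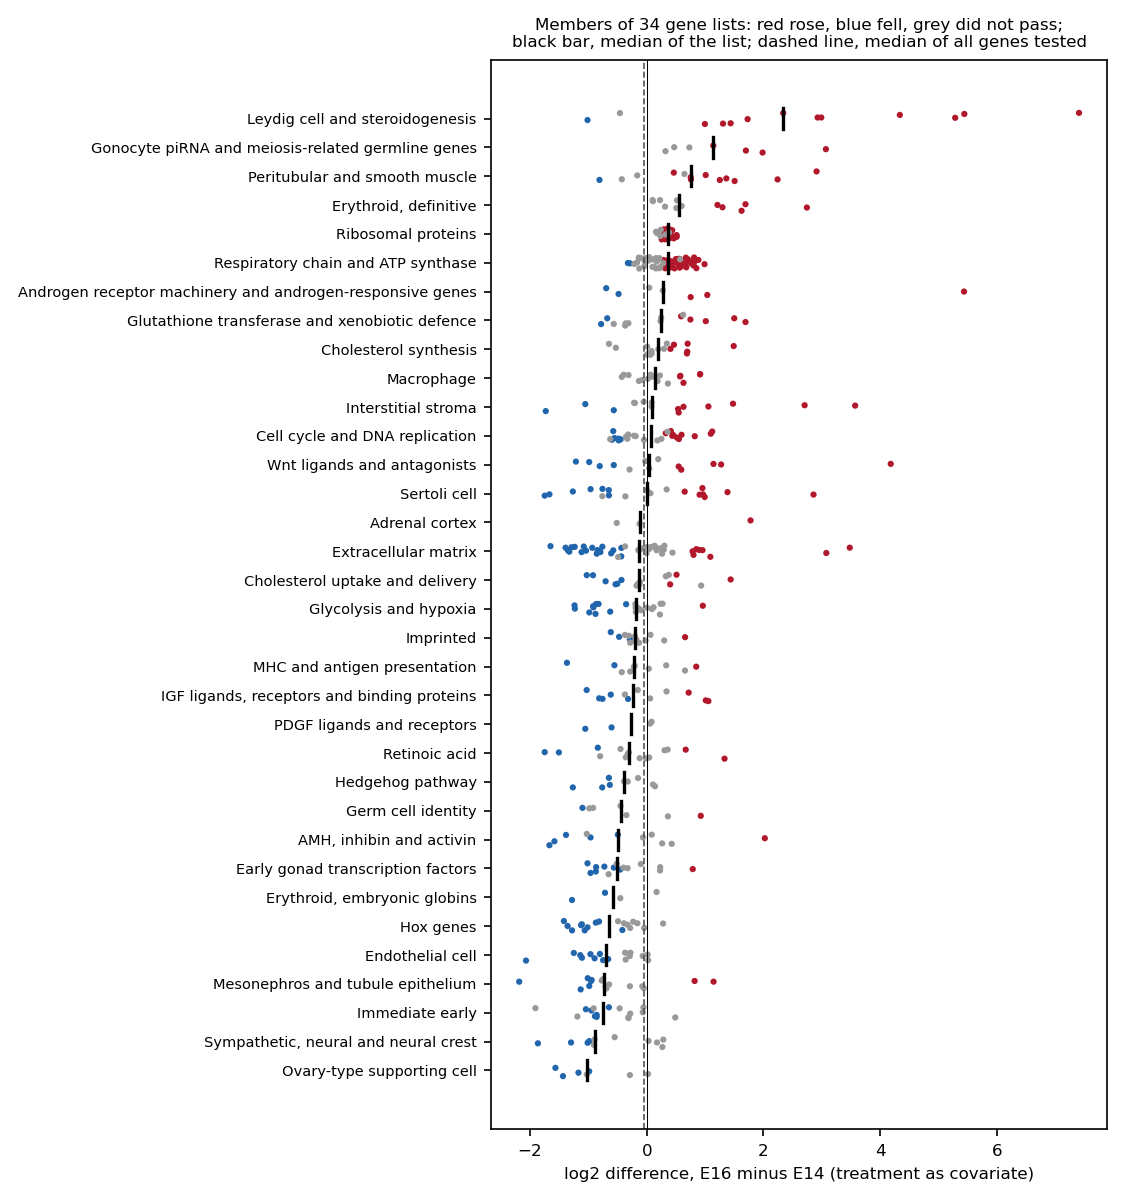
Log2 difference of every measured member of 34 gene lists, E16 minus E14 (x axis), with the lists ordered by their median (black bar) and the median of all genes tested (-0.05) as a dashed line. Leydig cell genes have the highest median (2.34) and ovary-type supporting cell genes the lowest (-1.03).

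Adult-type globins rose, and of 4 measured embryonic globins 2 fell and none rose. Without E14 vehicle replicate 1, 1 of the 4 rose, and without that array and E14 vinclozolin replicate 2 together 1 rose and none fell. The adult-type globins Hba-a3 (chromosome 10, 15816099 to 15816943) and Hbb rose by 2.74 (SE 0.38) and 1.62 (SE 0.29). Hba-a3 read 1916.0, 428.0, 605.2 and 602.8 at E14 and 8842.0, 3641.3, 4423.1 and 4600.5 at E16. The embryonic globin Hbz, on the same chromosome (15848279 to 15849757), fell by 1.28 (SE 0.28), from 14175.0, 9295.3, 7915.2 and 10173.0 to 7118.7, 2310.7, 4683.3 and 3920.3. The call of gene Hbz was lost without E14 vehicle replicate 1 and E14 vinclozolin replicate 2 together (adjusted p = 0.0506). Hbg1 fell by 0.72, a call lost without vinclozolin replicate 2 of either stage (adjusted p = 0.0537 and 0.0528). Both vehicle replicates 1 had the highest level of Hba-a3, of Hbz and of Hbg1 in their stage. Globin genes share sequence, and cross-reading between them was not tested. Of 12 definitive erythroid genes 5 rose and none fell, and of 16 macrophage genes 5 rose (3 without any 1 of 6 arrays, all but vehicle replicate 1 of E14 and vehicle replicate 2 of E16) and none fell, including Lyz2 by 0.91 and Tyrobp by 0.91.

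Mesonephros, ovary-type and neural lists had lower summed signals at E16. The summed signal of 16 mesonephros and tubule genes was 4833 to 5859 at E14 and 3592 to 4154 at E16, with 7 falls and 2 rises (4 falls without E16 vehicle replicate 1). The median was -0.73, and -0.46 without E14 vehicle replicate 1. Cdh16, a cadherin of kidney tubules (chromosome 19, 367202 to 377710), read 242.8, 43.8, 41.8 and 58.5 at E14 and 1.6 to 6.4 at E16. It fell by 2.19, but by 0.75 without a call (adjusted p = 0.137) when values were raised to the 40th percentile. Ovary-type supporting cell genes fell in 4 of 7 cases and none rose, the summed signal going from 1409 to 2187 down to 840.7 to 898.2. Wnt4, a signal of the ovarian pathway, fell by 0.99 and Lgr5 by 1.56. Neural and neural crest genes fell in 4 of 11 cases, none rose, and the sum was 636.8 to 1211 against 476.7 to 569.2. Their median was -0.89, or -0.34 without E14 vehicle replicate 1, which held the sum of 1211. Of 3 measured adrenal cortex genes, only Mrap rose (1.78). Their part in the stage changes was not tested.

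Sex chromosome genes moved with stage as well. Xist, the RNA of the inactive X chromosome (chromosome X, 72540753 to 72558266), read 174.9, 184.4, 32.0 and 489.9 at E14 and 5.6, 2.4, 6.8 and 16.6 at E16. It fell by 2.90 (SE 0.55), and its other tested probe sets had -1.23 and -1.54. In the fit with 12 arrays the adjusted p of gene Xist was 0.0512. Eif2s3y, a Y-linked translation factor (chromosome Y, 944653 to 964303), read 1237.5, 1248.9, 902.6 and 1094.8 and then 2364.2, 3495.7, 3251.0 and 2751.6, a rise of 1.39 (SE 0.15). Sry, the testis-determining gene, read 32.9 to 59.6 and then 1.4 to 15.7, a difference of -1.23 that passed only without a floor at the 40th percentile (-0.21, adjusted p = 0.19, for gene Sry with the floor). On those other probe sets, E14 vehicle replicate 1 (148.5 and 100.1) lay above replicate 2 (43.6 and 24.3), which the first probe set did not show. Leaving out E14 vehicle replicate 1 and E14 vinclozolin replicate 2 together gave 3399 rises and 3932 falls. These arrays held the highest sums of ovary-type genes (2115 and 2187).

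Metabolic lists shifted by small amounts. Of 61 respiratory chain and ATP synthase subunits 35 rose and 2 fell (median 0.37, with 27 to 37 rises and 0 to 2 falls when 1 array was left out), led by Cox7c at 0.99 (SE 0.09). Of 29 ribosomal proteins 23 rose and none fell (median 0.37). These sizes depended on scaling: after quantile normalization the medians were 0.21, with 25 rises and 7 falls, and 0.09, with 6 rises. Of 22 glycolytic and hypoxia genes 10 fell and 1 rose (median -0.19, or -0.44 with quantile normalization), the glucose transporters Slc2a3 by 1.24 and Slc2a1 by 0.91. In cholesterol synthesis 6 of 17 enzymes rose, Idi1 by 1.49, and none fell (2 fell without vehicle replicate 1 of either stage). In cholesterol uptake and delivery, besides Scarb1, the receptor Lrp1 fell by 1.03 and the esterifying enzyme Soat1 by 0.92 (3 rises and 6 falls of 16, with 1 and 3 without E14 vehicle replicate 2 and 1 and 4 without E16 vinclozolin replicate 1).

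Patterning and growth genes were mostly lower or mixed. Of 18 Hox genes 10 fell and none rose (median -0.65), Hoxc9 by 1.11. Without E16 vehicle replicate 2, 5 fell. The growth factor Igf1 rose by 1.06 and its receptor Igf1r fell by 1.03 (3 rises and 5 falls of 12). Retinoic acid genes counted 2 rises and 3 falls of 15 (median -0.31, or 0.13 without E14 vehicle replicate 1), with the receptor Rara lower by 0.84 and the retinol transporter Stra6 by 1.51. Among 26 cell cycle genes 10 rose and 6 fell, with 2 to 9 falls when 1 array was left out and 7 rises and 9 falls with quantile normalization. The mitotic kinases Ttk and Bub1 rose by 1.12 and 1.10, whereas 3 of 6 subunits of the MCM replication helicase fell and none rose, Mcm6 by 0.60. Of 14 glutathione and xenobiotic defence genes 5 rose and 2 fell, Ephx1 by 1.69 and Gsta1 by 1.5 against Gstp1 lower by 0.68. Wnt ligands and antagonists, Sfrp4 included, gave 5 rises (3 without either E16 vinclozolin replicate) and 4 falls of 13, with Dkk2 higher by 1.27 and Wnt6 lower by 1.21. Immediate early genes fell in 6 of 16 cases (median -0.75, or -0.31 with 5 falls without E14 vehicle replicate 1). The 14 imprinted genes gave 1 rise and 3 falls, or 8 falls with quantile normalization. Their falls came to 1 without E14 vinclozolin replicate 1, E16 vehicle replicate 1 or either E16 vinclozolin replicate. Of 7 measured genes of the androgen receptor machinery and androgen response 3 rose, Svs5 among them, and 2 fell (0 to 2 when 1 array was left out). Of 10 genes of antigen presentation 1 rose, B2m by 0.85, and 2 fell. There were 2 rises and 3 falls without E14 vehicle replicate 1, and 1 fall without any 1 of 5 arrays (all 4 vinclozolin arrays and E16 vehicle replicate 2).

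The 12 largest falls without overlap were, after Xist, those of the water and glycerol channel Aqp3 (-2.85) and the secreted C1qtnf12 (-2.62, from 474.4, 1309.1, 1683.2 and 1480.7 to 142.2, 181.1, 163.9 and 192.6). Next came the tight junction gene Cldn6 (-2.44, not called with a floor at the 40th percentile, adjusted p = 0.0645), the cartilage collagen Col2a1 (-2.43, with -0.85 and -1.03 on other probe sets) and Shisa3 (-2.42). Thy1, a surface glycoprotein, fell by 2.24, and its E14 values of 1034.6, 87.0, 65.3 and 105.3 gave -1.39 for gene Thy1 without vehicle replicate 1. The remaining 5 were Cdh16, Zfp703 (-2.12), Dact2 (-2.1), Plvap (-2.07) and the embryonic RNA-binding protein Igf2bp1 (-2.06). E14 vehicle replicate 1 was the highest array for Cldn6, Shisa3, Thy1, Cdh16, Zfp703 and Dact2.

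The stage change was next compared between vehicle and vinclozolin arrays. The 2 changes share no array, but the spread of each probe set was estimated from all 8 arrays together. The calls of the 2 treatments are therefore not independent, and their overlap is in part due to the shared spread. Between the vehicle groups 1315 probe sets rose and 2012 fell (16.2% of those tested). Between the vinclozolin groups 2119 rose and 2266 fell (21.3%). Of genes, 8.56% rose and 8.29% fell with vehicle, and 11.9% rose and 14% fell with vinclozolin. Of the 13 Leydig genes, 10 rose in each, none fell with vehicle and 1 fell with vinclozolin. With quantile normalization the rises were 51.3% of the vehicle calls rather than 39.5%. Of the 1315 vehicle rises, 1309 (99.5%) were also above 0 in vinclozolin arrays, and 1033 were called there (78.6% of vehicle and 48.8% of vinclozolin rises). Of the 2012 vehicle falls, 1914 (95.1%) were below 0 and 1048 were called (52.1% and 46.2%). The median of the 2012 vehicle falls was -1.04 with vehicle and -0.77 with vinclozolin. The 2266 vinclozolin falls had -0.71 with vehicle and -0.93 with vinclozolin. Vehicle rises had medians of 0.95 with vehicle and 0.93 with vinclozolin, and vinclozolin rises 0.73 and 0.99. Each median was thus larger in the arrays that made the calls. Across all tested probe sets 79.2% had the same sign, and the changes correlated with a Pearson r of 0.764 and a Spearman rho of 0.751. Probe sets are not independent replicates. The counts rest on few arrays. The 3327 vehicle calls became 1470 without E14 vehicle replicate 1, 1412 without replicate 2 of that group, 953 when E16 vehicle replicate 1 was left out and 1424 for its group mate. Without E16 vinclozolin replicate 1 or 2 they became 1937 or 1929. The 4385 vinclozolin calls fell to 114 without E16 vinclozolin replicate 1, 518 without replicate 2 of that group and 1321 without E14 vinclozolin replicate 1.

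The test of the difference itself found 1 probe set. The stage change with vinclozolin minus that with vehicle passed for 1375751_at only, of 20543 (0.00487%), and for no gene with a symbol. At an unadjusted p under 0.05 there were 950 (4.62%). This probe set, which has no gene name here, read 600.6 and 368.5 in vehicle and 107.1 and 102.5 in vinclozolin arrays at E14, and 39.6 and 53.2 against 178.5 and 162.9 at E16. It went down with vehicle and slightly up with vinclozolin, a difference of 3.60 (95% interval 2.81 to 4.39, adjusted p = 0.0139, limma). It was not called without any 1 of 6 arrays (all 4 of E16 and both of E14 vinclozolin), in a fit with all 12 in utero or all 20 arrays, with no filter or with no variance trend. The median width of the 95% interval on either side of a difference was 0.78.

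The leading Leydig cell genes and Svs5 rose in both treatments. Cyp17a1 rose by 7.22 with vehicle and 7.59 with vinclozolin, a difference of 0.37 with a 95% interval from -0.99 to 1.72. Insl3 rose by 4.76 and 6.12, a difference of 1.36 (-0.19 to 2.92), and Cyp11a1 by 4.95 and 5.62, a difference of 0.68 (-0.11 to 1.46). Star differed by 0.27 (-0.52 to 1.07), Svs5 by 0.12 (-0.80 to 1.04) and Hsd3b1 by 0.49 (adjusted p = 0.986, limma). The point values of all these genes were larger with vinclozolin, and E16 vehicle replicate 1 was the lowest E16 array for each. Prlr had 0.86 and 2.60, a difference of 1.74 (0.34 to 3.13, adjusted p = 0.986, limma), with 46.6 on that array and 177.9 to 231.1 on the other E16 arrays. Amh had -0.43 with vehicle and -1.5 with vinclozolin, a difference of -1.07 (-2.42 to 0.28).

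The genes of smallest unadjusted p for the difference did not pass adjustment. RT1-Bb, a class II histocompatibility gene (chromosome 20, 4598475 to 4604118), read 213.3 and 147.7 on the E14 vinclozolin arrays and 2.6 to 18.5 on the other 6, a difference of -2.81 (adjusted p = 0.702, limma). Loxl1, an elastic fibre cross-linker, was 0.90 with vehicle and -0.38 with vinclozolin. Emilin1, a glycoprotein of elastic fibres, was -0.49 and -1.39, and the p53 regulator Mdm4 was -0.80 and 0.97 (each with an adjusted p of 0.986). Mdm4 was low on E14 vinclozolin replicate 1 (205.2) and not on replicate 2 (520.4).

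**Figure D4:**
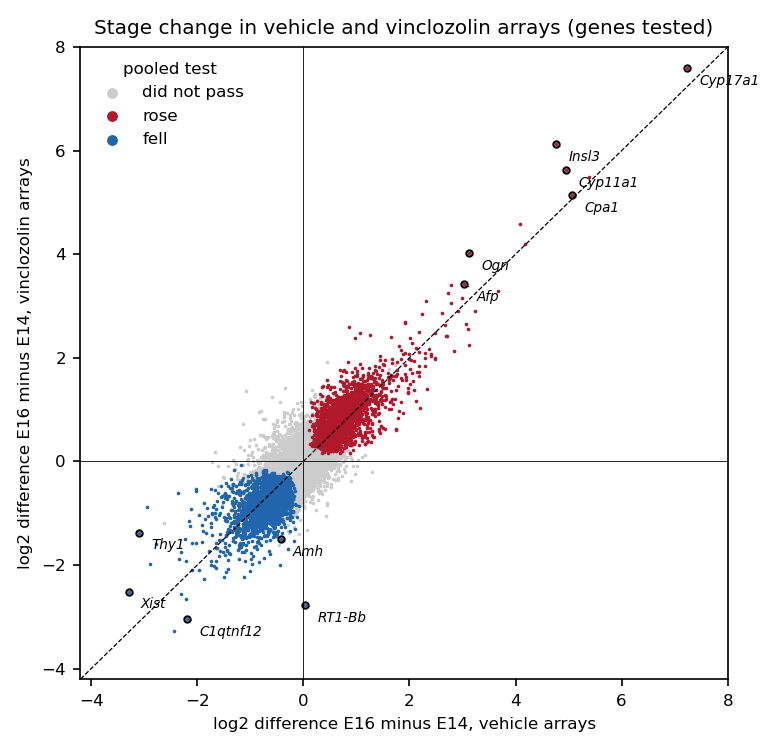
Log2 change from E14 to E16 of each tested gene in vehicle arrays (x axis) and in vinclozolin arrays (y axis), coloured by the pooled test, with the line of equal change dashed. Leydig genes lie at the upper right in both treatments, and RT1-Bb, at 0.04 with vehicle and -2.77 with vinclozolin, lies off the line.

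The step after E14 was also set against the step before it, with the 4 E13 arrays added to the fit. Both steps share the E14 arrays, so their values and tests are not independent of each other. The values are given side by side, with the test of the difference and, for some genes, that of the earlier step. The steps differed for 39.8% of genes (35.5% of probe sets). Of the leading Leydig cell genes, Cyp11a1 rose before E14, by 0.56 (adjusted p = 0.0426, limma). Cyp17a1 had 0.29, Hsd3b1 0.90 (adjusted p = 0.052), Insl3 0.57 and Star -0.26, which did not pass. The later step was larger for all 5 (adjusted p of the difference 6.2e-05 to 0.001, limma). Within E13 the arrays numbered 1 of both treatments stood apart from those numbered 2: Xist read 758.6 and 896.0 against 20.4 and 17.9, and Amh 106 and 372.4 against 1484.7 and 1102.2. Amh had 2.91 before and -0.96 after (adjusted p = 0.02), and its earlier step was 1.63 without the E13 arrays numbered 1, an alternative chosen after the data were seen. Without them Hsd3b1 had 1.26 (adjusted p = 0.0217) and Cyp11a1 0.57 (adjusted p = 0.104).

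Several genes that fell after E14 had risen before it, at an adjusted p of 0.0026 to 0.034 (limma). They were picked after their values were seen, and the same E14 arrays enter both steps. Plvap had 0.56 and then -2.07, Tie1 1.15 and -1.11, Hspg2 1.04 and -1.35, Col18a1 0.90 and -1.65, Wnt4 1.04 and -0.99, and Dhh 1.93 and -1.27. Wnt4 read 499.7 to 576.7 at E13, 932.4 to 1392.6 at E14 and 501.5 to 588.8 at E16, so the outer stages overlapped and E14 stood above both. The opposite shape occurred in Eif2s3y, which had -1.29 and then 1.39 and read 2363.1 to 3182.4 at E13. Idi1 had -0.89 and 1.49, Ttk -0.77 and 1.12 and Bub1 -0.85 and 1.10. For all 10 the steps differed (adjusted p 2.3e-04 to 0.0022, limma). Without the E13 arrays numbered 1, the earlier rise of Col18a1 did not pass (0.64, adjusted p = 0.0762). All E14 values come from the same 4 arrays, so that set of arrays and the stage cannot be told apart.

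**Figure D5:**
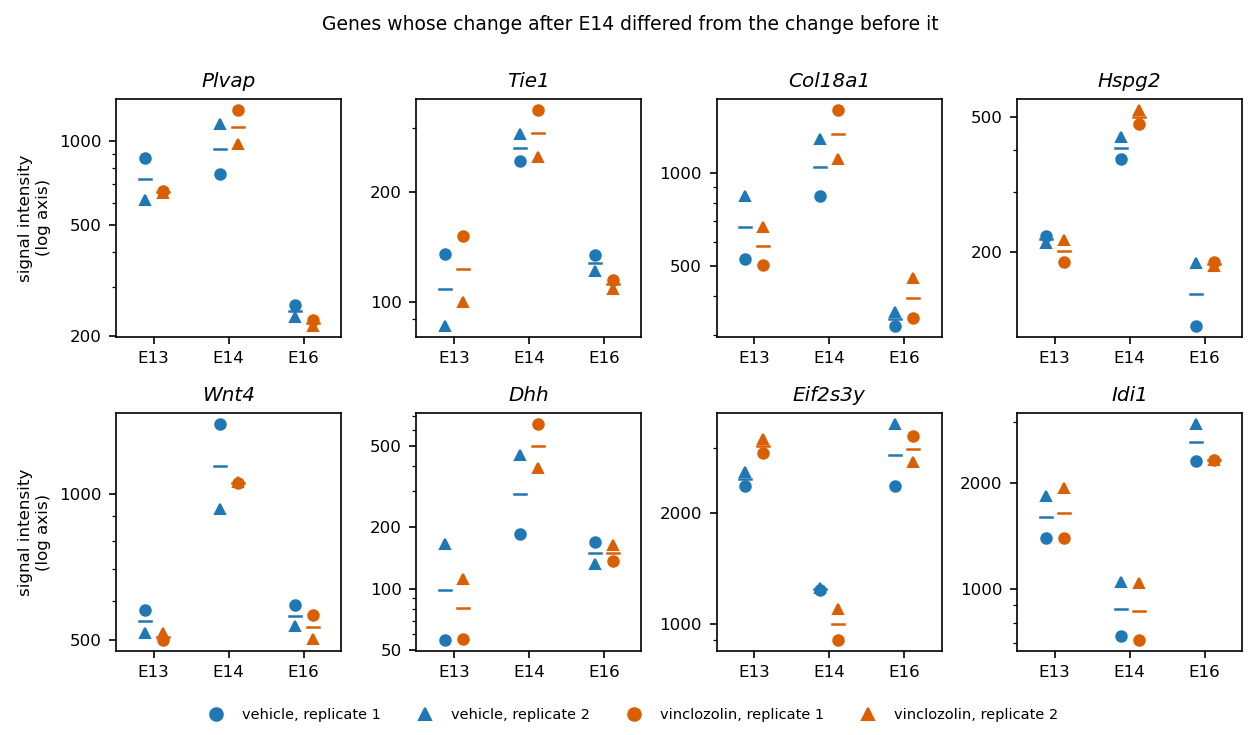
Signal intensity (y axis, log scale) at E13, E14 and E16 of 8 genes picked after their values were seen, with circles for replicate 1, triangles for replicate 2 and bars for group means. By group means the first 6 stand highest at E14, though single E13 and E14 arrays overlap for Plvap and Col18a1. Eif2s3y (902.6 to 1248.9 at E14) and Idi1 stand lowest at E14.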

How the data were processed

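Signal values deposited by the authors were made with MAS5, per the submitters' processing notes, whose version is not given in the sources used here. They are linear signal intensities, and the mean after trimming 2% of values from either end was 210.1 on each of the 8 arrays. Signal was not normalized further and was taken to log2 after adding 16, so differences of dim genes are understated. Of 31099 probe sets 57 controls were left out. Probe sets at or above the 40th percentile of the array on at least 2 of the 8 arrays were tested (20543, of which 15367 had 1 gene symbol, 353 several and 4823 none). Symbols came from the platform annotation and RefSeq (GRCr8), which also gave positions; Sox9 had no named probe set. The brightest probe set by mean log2 stood for a gene (3142 of 11130 genes had several). The fit used limma 3.58.1 in R 4.3.3 with stage and treatment as terms, moderated variances with a trend, two-sided p-values, Benjamini-Hochberg adjustment and a threshold of 0.05. Each treatment and the difference were read from a fit with 1 mean per group and a spread shared by all 8 arrays. The 2 steps were read from the 12 in utero arrays. Precision is limited by the number of arrays; the median SE was 0.176 for the pooled change and 0.251 within a treatment.

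Genes were named as the 12 largest rises and falls without overlap, Star, Cyp11a1, Cyp17a1, Hsd3b1, Insl3, Amh, Sox9, Sry, Xist and Eif2s3y, up to 4 members of smallest p per list, and the 5 of smallest p in each direction for the difference between treatments. Other list members named, and the genes of the plot of 3 stages were chosen after their values were seen. The members and all lists were chosen with earlier results of these data known. On simulated data of the pooled fit (20543 probe sets), 64 of 100 changes of 2-fold and 94 of 100 of 4-fold were recovered, with 9 false calls. For the difference between treatments 3 of 100 changes of 2-fold and 49 of 100 of 4-fold were recovered, with 4 false calls. In the pooled simulation far fewer probe sets changed than the 8136 called in the data. Recovery depends on how many change, so these rates do not describe the fits to the data.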

Additional observations from a re-analysis of the deposited data

Results flagged for a closer look

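Among 28 genes named by size or in advance, each stage's 4 arrays were searched for a value far from the other 3. This gave 7 in 56 comparisons. Chance gives about 1 in 20 for a single comparison of like arrays. These comparisons share arrays, mix the treatments and use genes mostly picked by size, so that rate is no reference for the count. Of the 7, 4 lay on E14 vehicle replicate 1. There, Cpa1 read 77 against 198.4 to 233.9 on the other E14 arrays, Thy1 1034.6 against 65.3 to 105.3, Cdh16 242.8 against 41.8 to 58.5, and Amh 1553.9 against 4892.5 to 5795.5. On E16 vehicle replicate 1, Cyp17a1 read 2657 against 6521.8 to 7448.0 and Insl3 535.5 against 2066.1 to 2638.5. On E16 vehicle replicate 2, Ogn read 2255.9 against 1577.7 to 1624.0.

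The stage change differed between the treatments for the probe set 1375751_at, by 3.60 on the log2 scale (vinclozolin minus vehicle, adjusted p = 0.0139, limma). It was the 1 call among 20543 probe sets.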

How the results depend on the processing

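The count of changed probe sets was 8136, and 7331 to 9323 under the alternatives of scaling, pseudocount, filter, array set, trend and covariate. Leaving out 1 array in turn gave 6046 to 7970. The rule of unadjusted p, a 1.5-fold change and no overlap gave 4956. For vehicle arrays (3327), no filter gave 2203 and a fit on all 20 arrays 5047, and leaving out 1 array gave 953 to 4337. For vinclozolin arrays (4385), leaving out 1 array gave 114 to 4702. The difference between treatments (1 call) gave 0 with no filter, with 12 or 20 arrays in the fit, with no variance trend and without E14 vehicle replicate 1 and E14 vinclozolin replicate 2 together, and 0 to 1 when 1 array was left out. The 1 call without E14 vinclozolin replicate 1 was another probe set. When 1 of a group's 2 arrays was left out, the other was assumed to vary like the remaining groups. The difference between steps (7292) gave 6870 to 8595.

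The median of retinoic acid genes turned from -0.31 to 0.13 without E14 vehicle replicate 1 alone, and to 0.19 without that array and E14 vinclozolin replicate 2. Over 159 named genes and 3162 settings, 3010 kept their side of the threshold (11 changed sign with no call on either side), 123 lost and 29 gained a call, and none reversed a call; 16 lost a call when 1 array was left out. Most named genes were picked by size of change or small p in this same fit, so these counts do not describe all calls. The replicate numbers did not pair the E14 and E16 samples: deviations of same-numbered arrays correlated from -0.13 to 0.15. Both E13 groups correlated with each other at 0.635, but with the E14 and E16 groups from -0.205 to 0.0962. With the replicate number as a block, 8084 probe sets changed in all, 3421 in vehicle and 4417 in vinclozolin arrays, and 1 for the difference. The block, added for the steps after seeing the data, gave 7242 for the difference between steps. The cause of these shifts was not tested.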
